A study of Mus musculus with 16 samples.

Results

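Immediate early response genes are typically switched on within minutes of a stimulus, without new protein synthesis, though not every gene grouped with them is. The 10 genes examined here under that name are Fos, Fosb, Fosl1, Jun, Junb, Egr1, Ier3, Atf3, Dusp1 and Zfp36. They were taken as every probe of the deposited value table whose platform gene symbol is one of these names, which gave 10 genes of 16593 named on the array, with 1 probe each of 25697 probes. The samples were whole colons of male C57Bl/6J mice, profiled on Illumina bead arrays with 1 array a sample. There were 4 untreated controls, 6 samples of mice given dextran sulfate sodium (DSS), an irritant that damages the gut epithelium, and 6 of mice given DSS together with methylthioadenosine (MTA), a nucleoside by-product of polyamine synthesis. The series compared these treatments to learn what MTA supplementation does in DSS-induced colitis. The sources used here give no age, dose or days of treatment. Nothing in them ties samples to separate animals, so the p-values measure the spread between these samples. In whole tissue, a higher level cannot be told apart as more RNA per cell or more cells of a type that makes it.

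The proteins of the Fos and Jun families pair through leucine zippers into the transcription factor AP-1, which binds promoters of growth, matrix and inflammatory genes. Egr1 is a zinc finger factor induced through MAP kinases and serum response factor, and Atf3 is a stress-induced factor of the CREB family that can pair with Jun proteins. Ier3 affects survival under NF-kappaB and stress signals. Dusp1 and Zfp36 act as brakes: Dusp1 removes phosphate from p38, JNK and ERK, and Zfp36 (tristetraprolin) binds AU-rich elements of cytokine mRNAs and speeds their decay. In the gut these genes respond to growth factors, bacterial products, cytokines and mechanical injury.

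All values are log2 of the authors' probe intensities, which they had normalized between arrays, with array medians at a log2 intensity of 6.81. Correlations over all probes were 0.959 to 0.994 between arrays of 1 group and 0.948 to 0.991 between arrays of different groups. The lowest mean correlations with the own group were those of DSS with MTA replicate 2 (0.970) and DSS replicate 2 (0.978). All 9 measured epithelial markers and 8 of 9 smooth muscle markers lay above the array median in every array. Fosl1 had group means below the array medians in all 3 groups, so any background left in the intensities would make its fold changes smaller than they were, and Fosb lay close to the medians.

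The promoters of 8 of the 10 genes were in the RefSeq promoter table of GRCm38.p6. Those of Egr1 and Fosl1 were not in it and could not be searched. Of the 8 that were searched, the sequences of Jun and Fosb are not printed. Fosb, like Fos and Atf3, varied widely between arrays (pooled SD within groups 0.73), and Jun did so less (0.22). The 250 bases before the transcription start are shown for the 4 of the 8 that rose with DSS (Junb, Ier3, Dusp1 and Zfp36). They are also shown for Fos and Atf3, which varied widely between arrays without passing the test. Each is written 5′ to 3′ on the gene's strand, and capitals mark matches on either strand to the motifs searched.
Junb, chr8:84978749-84978998, minus strand: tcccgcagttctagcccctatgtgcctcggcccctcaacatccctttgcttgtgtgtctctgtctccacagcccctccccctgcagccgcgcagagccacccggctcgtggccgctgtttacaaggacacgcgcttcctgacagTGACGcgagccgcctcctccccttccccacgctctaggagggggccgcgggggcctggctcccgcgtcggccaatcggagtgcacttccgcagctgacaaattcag
Ier3, chr17:35821463-35821712, plus strand: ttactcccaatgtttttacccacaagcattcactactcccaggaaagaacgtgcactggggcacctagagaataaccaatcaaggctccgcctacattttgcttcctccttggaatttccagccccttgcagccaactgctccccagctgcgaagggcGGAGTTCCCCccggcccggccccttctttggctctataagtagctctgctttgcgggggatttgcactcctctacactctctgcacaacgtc
Dusp1, chr17:26508473-26508722, minus strand: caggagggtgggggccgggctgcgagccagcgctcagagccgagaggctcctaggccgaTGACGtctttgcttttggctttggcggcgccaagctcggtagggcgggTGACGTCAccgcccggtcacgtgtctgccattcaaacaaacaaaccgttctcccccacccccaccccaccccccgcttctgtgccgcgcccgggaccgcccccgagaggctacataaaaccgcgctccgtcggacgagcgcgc
Zfp36, chr7:28379229-28379478, minus strand: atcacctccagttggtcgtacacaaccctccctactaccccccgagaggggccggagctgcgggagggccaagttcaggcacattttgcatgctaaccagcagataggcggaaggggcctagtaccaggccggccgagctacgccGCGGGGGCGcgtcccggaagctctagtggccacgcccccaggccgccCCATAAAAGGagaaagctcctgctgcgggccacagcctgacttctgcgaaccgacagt
Fos, chr12:85473640-85473889, plus strand: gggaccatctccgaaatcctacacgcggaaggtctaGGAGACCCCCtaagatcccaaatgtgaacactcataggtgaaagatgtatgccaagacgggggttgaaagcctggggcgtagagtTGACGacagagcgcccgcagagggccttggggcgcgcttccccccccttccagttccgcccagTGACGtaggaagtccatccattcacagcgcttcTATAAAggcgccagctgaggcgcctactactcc
Atf3, chr1:191183334-191183583, minus strand: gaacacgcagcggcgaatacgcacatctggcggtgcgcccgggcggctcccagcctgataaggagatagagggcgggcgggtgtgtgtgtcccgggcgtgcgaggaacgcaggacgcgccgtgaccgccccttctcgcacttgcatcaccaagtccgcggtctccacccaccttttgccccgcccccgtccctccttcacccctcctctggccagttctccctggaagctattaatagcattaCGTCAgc
The search covered the TATA box as TATAAA and the core of the cAMP response element as TGACG. An AP-1 element was searched as TGANTCA and an Egr element as GCGNGGGCG. The CArG box of serum response factor and the NF-kappaB site were searched too. TGACG was in 5 of the 8 windows (Fos, Fosb, Junb, Atf3 and Dusp1), against 17.8% of all 32851 windows of this length. Dusp1 held 3 matches, of which the ones 143 and 140 bases before the start overlap as a palindrome, and Fos held 2, at 129 and 66 bases, with a TATAAA at 33. The NF-kappaB site was in 3 windows (Fos, Fosb and Ier3), against 3.9% of all windows, and in Ier3 it began 92 bases before the start. Of these 8 windows only that of Zfp36 held a CArG box, 58 bases before the start, against 1.47% of all windows. Bases farther upstream were not searched. Zfp36 also held GCGNGGGCG at 105, a motif of Fosb too and of 4.7% of windows. No window held TGANTCA, found in 6.75% of all, and Jun held none of the 6 motifs. TATAAA was in 12.4% of all windows. The windows of these genes are richer in G and C (54.4% to 68.8%) than the median window (52.4%).

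With DSS, 5 of the 10 genes rose and none fell: Egr1, Ier3, Junb, Dusp1 and Zfp36, by 1.8-fold to 3.9-fold. The 2 brakes, Dusp1 and Zfp36, were among them, while Fos, Fosb, Fosl1, Jun and Atf3 did not pass the test. A gene passed at a limma adjusted p below 0.05 over all 25697 probes. Of all probes, 4.12% were called higher by this rule. The median log2 fold change of the 10 genes was 0.79, against -0.02 over all probes. In 6 of the 10 (the 5 and Fosl1) every DSS array lay above every control array, which held for 5.19% of all probes.

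**Figure D1:**
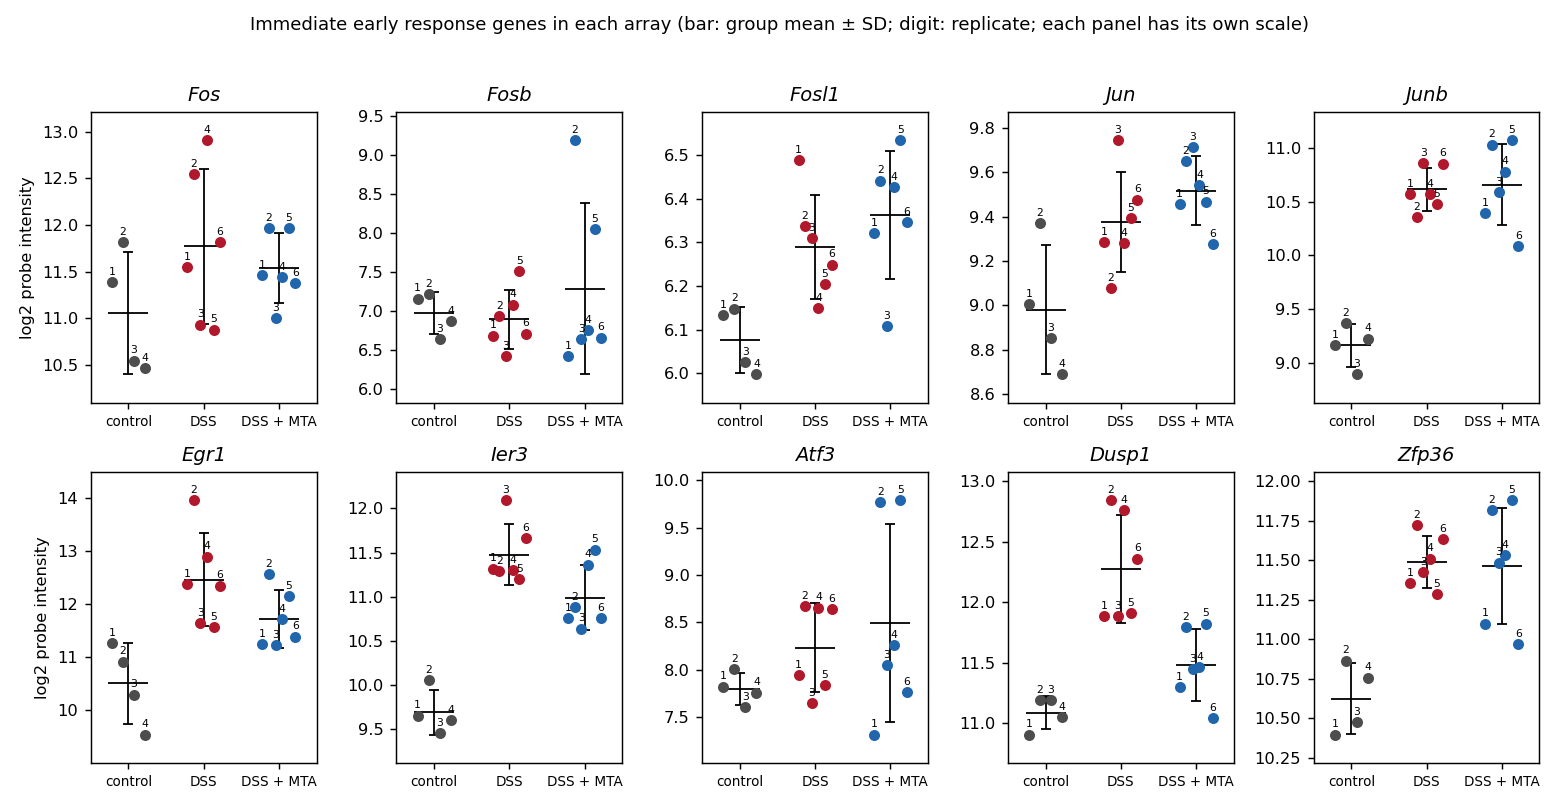
Log2 probe intensity (vertical axis, own scale in each panel) of the 10 genes in each array by group, with the replicate number above each point and bars for the group mean ± SD. Junb, Ier3, Zfp36, Egr1 and Dusp1 stand higher in every DSS array than in every control, and Fosb and Atf3 with MTA are spread by replicates 2 and 5.

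Junb, the Jun family member that forms AP-1 with weaker growth-promoting activity than Jun, stood at log2 intensities of 9.17, 9.37, 8.89 and 9.22 in control replicates 1 to 4. With DSS its lowest array was at 10.36, the median at 10.57 and the highest at 10.86. The groups did not overlap, and the spread within each was small (SD 0.20 in both, n = 4 and n = 6). The log2 fold change was 1.45 ± 0.17 (SE, limma adjusted p = 1.63e-04), or 2.74-fold. It passed the test in each of the 28 alternatives, with values of 1.36 to 1.52.

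Jun itself, the founding member of the Jun family, differed less. Its control arrays were at 9.01, 9.37, 8.85 and 8.69, and the DSS arrays ran from 9.08 through a median of 9.34 to 9.75. The groups overlapped, since control replicate 2 lay above 3 of the 6 DSS arrays. The difference of 0.40 ± 0.13 (SE, limma adjusted p = 0.0925) did not pass, although all 6 DSS arrays lay above the control mean. Jun was called without control replicate 2 (0.53, adjusted p = 0.0296) and with array weights.

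Among the Fos family none passed. Fos, the best known partner of Jun, stood at 11.39, 11.82, 10.55 and 10.47 in the controls. With DSS it ranged from 10.88 over a median of 11.68 to 12.91, and 4 of the 6 DSS arrays lay within the range of the controls. Its difference was 0.72 ± 0.38 (SE, limma adjusted p = 0.303). Control replicates 1 and 2 were the higher ones, and these belong to the first 8 accessions of the series while replicates 3 and 4 belong to the last 8. Within the first 8 arrays Fos differed by 0.07 between DSS and control (3 against 2), and within the last 8 by 1.36. The labels do not say what, if anything, separates the first 8 from the last 8.

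Fosb, a Fos relative best studied in neurons, had control arrays at 7.16, 7.21, 6.63 and 6.86 and DSS arrays from 6.42 to 7.51 with a median of 6.82, and the groups overlapped fully. Its difference of -0.08 ± 0.43 (SE, limma adjusted p = 0.947) had a 95% interval from -1.0 to 0.84. Fosl1 (Fra-1), a Fos protein without a transactivation domain that is linked to cell migration, was dim but even. Its controls were at 6.13, 6.15, 6.03 and 6.00 and its DSS arrays at 6.15 to 6.49 with a median of 6.28. All 6 DSS arrays lay above all controls, by a mean of 0.21 ± 0.08 (SE, limma adjusted p = 0.130), which did not pass.

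Egr1 showed the largest estimate of the 10. The controls were at 11.27, 10.92, 10.30 and 9.54, and the DSS arrays began at 11.58, had a median of 12.37 and reached 13.97. The groups did not overlap, but both were wide (SD 0.76, n = 4, and 0.89, n = 6), and DSS replicate 2 stood highest. The log2 fold change was 1.96 ± 0.44 (SE, limma adjusted p = 0.0136), or 3.9-fold. The call was lost without control replicate 3 (1.89, adjusted p = 0.0507) or control replicate 4 (1.64, adjusted p = 0.0556). Within the first and last 8 accessions the differences were 1.57 and 2.36.

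Ier3 stood at 9.65, 10.05, 9.46 and 9.60 in the controls and at 11.20 to 12.09 with DSS, with a median of 11.31. The gap between the groups was wider than the range of either, and DSS replicate 3 was the highest array. Its log2 fold change was 1.79 ± 0.20 (SE, limma adjusted p = 1.10e-04), or 3.45-fold. Atf3, in contrast, had controls at 7.82, 8.01, 7.60 and 7.76 and DSS arrays from 7.65 over a median of 8.29 to 8.67. Only 3 of the 6 DSS arrays (replicates 2, 4 and 6) lay above all controls, and the difference of 0.44 ± 0.42 (SE, limma adjusted p = 0.617) did not pass.

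The phosphatase gene Dusp1 was at 10.91, 11.20, 11.19 and 11.05 there (SD 0.14, n = 4), and with DSS at 11.89 to 12.84 with a median of 12.14. No array overlapped, and DSS replicates 2 and 4 were the highest. It rose by 1.19 ± 0.20 on the log2 scale (SE, limma adjusted p = 0.00273), or 2.28-fold. Zfp36 had control arrays at 10.40, 10.87, 10.47 and 10.76 and DSS arrays from 11.28 over a median of 11.47 to 11.72, again without overlap. It rose by 0.87 ± 0.17 (SE, limma adjusted p = 0.00571), or 1.82-fold.

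Markers of other cell types moved with the same comparison. Of 11 measured neutrophil markers 7 rose with DSS, and the mean of the list stood 0.99 to 1.88 log2 units above the control mean in the DSS arrays, 0.37 to 1.16 with MTA and -0.08 to 0.11 in the controls. Endothelial markers rose in 6 of 10 cases (DSS arrays 0.35 to 0.96, MTA arrays -0.32 to 0.65, controls -0.13 to 0.12) and fibroblast markers in 3 of 9 (0.54 to 1.82, -0.19 to 0.80 and -0.47 to 0.20). For the lists given by a median here, it is that of the log2 fold changes over genes. None of 10 macrophage and monocyte markers (median 0.86) and none of 8 lymphocyte markers (median -0.07) passed. Of 8 enteric neuron and glia markers 2 rose, the glial filament gene Gfap (1.21 ± 0.17, SE, limma adjusted p = 6.31e-04) and the receptor Ret (1.01 ± 0.20, adjusted p = 0.0073). Of the 8 estimates 7 were above 0, while the glial gene S100b was at -0.09 ± 0.08 (adjusted p = 0.590). The list means were 0.17 to 0.73 in the DSS arrays, -0.041 to 0.64 with MTA and -0.016 to 0.014 in the controls. Of 9 smooth muscle markers 1 rose, and of 9 epithelial markers 1 fell. None of 6 mesothelial and adipocyte markers (median -0.07) and none of 4 red cell markers (median 0.39) passed. The part of these markers in the rise of the 5 genes was not tested.

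With MTA added to DSS, none of the 10 genes differed from DSS alone at the threshold, and their median log2 difference was 0.01, as over all probes. That comparison called few probes at all: 37 of 25697, or 0.144%, passed. The number was 0 without DSS replicate 2 or without MTA replicate 6 and reached 170 without MTA replicate 2. At an unadjusted p below 0.05 by the same limma fit, 2 of the 10 genes (Dusp1 and Ier3) were included, against 11.5% of all probes. The estimates ran from -0.80 for Dusp1 to 0.39 for Fosb.

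**Figure D2:**
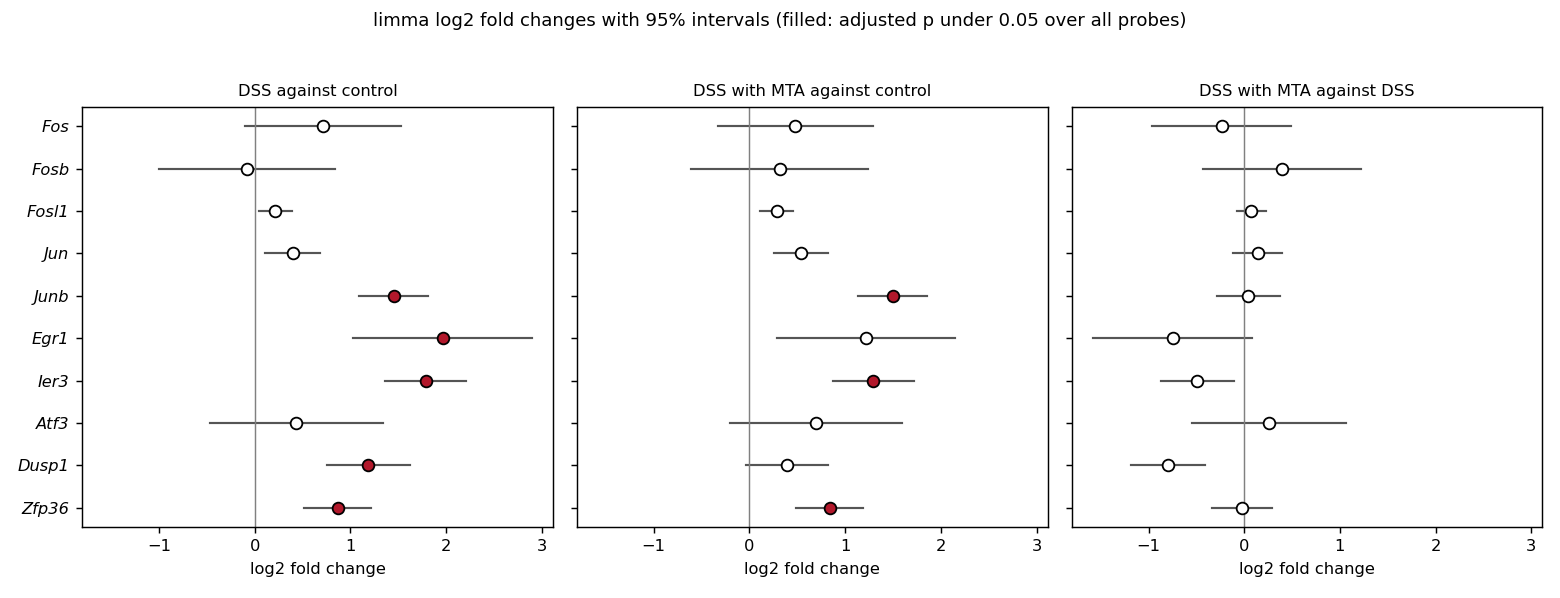
Log2 fold changes (horizontal axis) of the 10 genes in the 3 comparisons, with 95% intervals of the limma fit and filled points where the adjusted p was below 0.05. Filled points appear for 5 genes with DSS against control, for 3 with MTA against control and for none with MTA against DSS, where the interval of Dusp1 runs from -1.18 to -0.41.

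Dusp1 had its MTA arrays at 11.04 to 11.82 with a median of 11.46, and all 6 lay below all 6 DSS arrays. Such a separation downward held for 0.327% of all probes, and for no other of the 10 genes. The difference from DSS was -0.80 ± 0.18 (SE, limma unadjusted p = 4.89e-04, adjusted p = 0.101), so the level was 0.58 of that with DSS, and it did not pass over all probes. Its adjusted p ran from 0.0495 to 0.242 over the 28 alternatives, 1 of which passed, and the estimate from -0.87 to -0.68. Within the first 8 accessions the difference was -0.69 and within the last 8 it was -0.90. Against control, Dusp1 with MTA differed by 0.39 ± 0.20 (SE, limma adjusted p = 0.391), beside the 1.19 of DSS alone. Both comparisons use the same 4 control arrays. In the same contrast of MTA with DSS, 10 endothelial markers had a median difference of -0.62 and 9 fibroblast markers one of -0.75. The medians were -0.48 for macrophage and monocyte, -0.26 for enteric neuron and glia, -0.24 for neutrophil and -0.04 for smooth muscle markers. They were 0.05 for mesothelial and adipocyte, 0.15 for epithelial and 0.27 for lymphocyte markers. The 4 red cell markers ran from -0.08 to 0.45. Of all these markers only 1, an epithelial one, passed, as higher. Their part in the Dusp1 values was not tested.

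Ier3 with MTA ranged from 10.64 over a median of 10.82 to 11.53, and 4 of 6 MTA arrays lay below all DSS arrays. Its difference from DSS was -0.49 ± 0.18 (SE, limma unadjusted p = 0.0149, adjusted p = 0.305). For Egr1 the MTA arrays were at 11.23 to 12.57 with a median of 11.56, and 3 of 6 lay below all DSS arrays. The difference was -0.75 ± 0.39 (SE, limma adjusted p = 0.483), with a 95% interval from -1.58 to 0.08. Over the 28 alternatives it ran from -0.93 to -0.45, the last without DSS replicate 2 (limma adjusted p = 0.773).

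Junb and Zfp36 had means with MTA close to those with DSS. The Junb arrays ran from 10.09 over a median of 10.68 to 11.07, and the difference was 0.04 with a 95% interval from -0.28 to 0.37. Zfp36 ran from 10.97 over 11.51 to 11.88, with a difference of -0.02 and an interval from -0.34 to 0.29. The signs of these near-zero values turned in some alternatives. Jun with MTA was at 9.28 to 9.71 with a median of 9.50, a difference of 0.14 (interval -0.11 to 0.40), and Fosl1 at 6.11 to 6.53 with a median of 6.39, a difference of 0.07 (-0.08 to 0.23). Fos was at 11.00 to 11.97 with a median of 11.45, a difference of -0.24 (-0.96 to 0.49).

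Fosb and Atf3 had the widest MTA groups of the 10 (SD 1.10 and 1.05, n = 6). Fosb stood at 9.19 in replicate 2 and 8.04 in replicate 5, while the other 4 MTA arrays lay between 6.42 and 6.75. Atf3 stood at 9.77 and 9.79 in the same 2 arrays and between 7.31 and 8.26 in the others. Both arrays were above every DSS and control array for both genes. The group means with MTA, 7.28 for Fosb and 8.49 for Atf3, therefore rest on these 2 samples, and the medians (6.70 and 8.15) lay below those with DSS (6.82 and 8.29). The differences from DSS were 0.39 ± 0.39 for Fosb and 0.26 ± 0.38 for Atf3 (SE, limma adjusted p = 0.738 and 0.839). In MTA replicates 2 and 5 the smooth muscle markers stood 0.76 and 0.70 above the control mean, against -0.06 to 0.12 in the other 4. Endothelial markers stood at 0.65 and 0.36 against -0.32 to 0.10, and fibroblast markers at 0.80 and 0.65 against -0.19 to 0.13. Macrophage and monocyte markers stood at 1.40 and 0.78 against -0.38 to 0.12, and enteric neuron and glia markers at 0.53 and 0.64 against -0.041 to 0.29. Epithelial markers stood at 0.38 and 0.34 against -0.11 to 0.27. The remaining lists did not set both arrays apart. Neutrophil markers were at 0.86 and 1.16 against 0.37 to 0.94, and red cell markers at 1.01 and 0.79 against 0.24 to 0.96. Lymphocyte markers were at 0.33 and -0.22 against -0.25 to 1.31, and mesothelial and adipocyte markers at -0.05 and 0.93 against -0.84 to 0.15. In the DSS arrays Fosb reached at most 7.51 and Atf3 at most 8.67. The highest list means there were 0.91 for smooth muscle, 0.96 for endothelial and 1.82 for fibroblast markers. They were 1.30 for macrophage and monocyte, 0.73 for enteric neuron and glia and 0.30 for epithelial markers. The part of these markers in the Fosb and Atf3 levels was not tested.

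**Figure D3:**
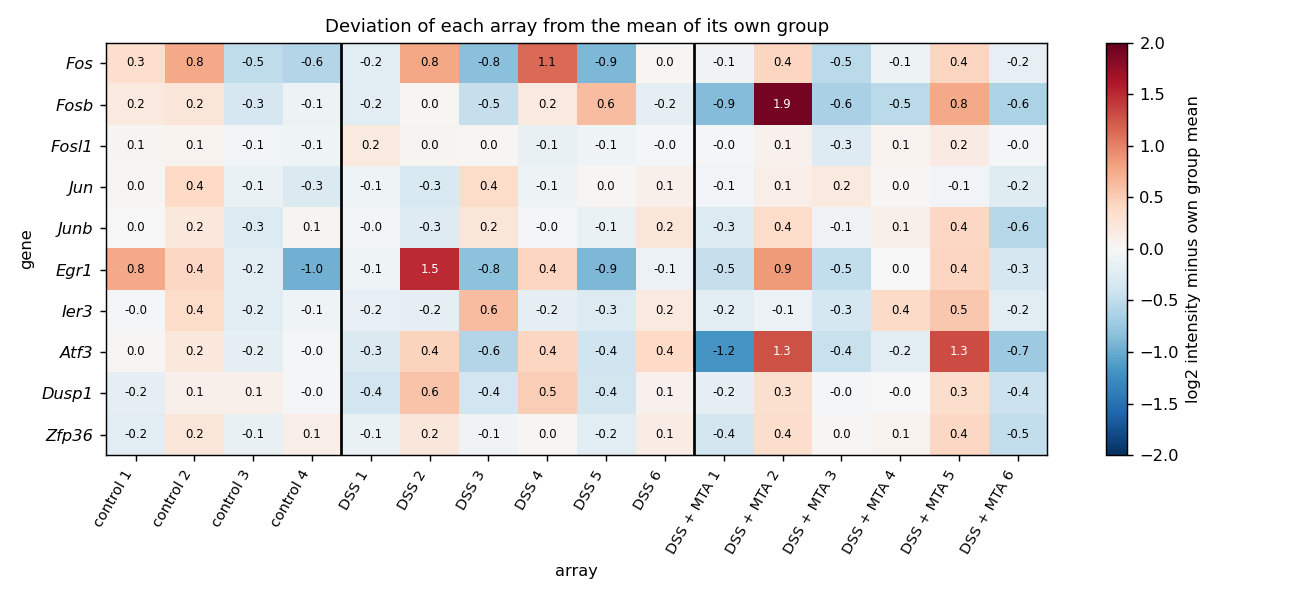
Log2 intensity of each gene (rows) in each array (columns) minus the mean of its own group, in red where higher and blue where lower. MTA replicates 2 and 5 are high in Fosb and Atf3, DSS replicates 2 and 4 in Fos and Dusp1, and the rows of Jun and Fosl1 stay closest to 0.

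Compared with untreated colon, 3 of the 10 genes were higher with DSS and MTA together, and none was lower. These were Junb (1.5 ± 0.17, SE, limma adjusted p = 4.52e-04), Ier3 (1.30 ± 0.20, adjusted p = 0.00427) and Zfp36 (0.84 ± 0.17, adjusted p = 0.0158). Of all probes 1.21% were called higher here. The same 3 genes had every MTA array above every control, which held for 2.69% of all probes. Zfp36 lost its call without control replicate 3 (0.79, adjusted p = 0.0689). Jun lay at 0.54 ± 0.13 (adjusted p = 0.0506), and passed in 8 of 28 alternatives, among them the fit without control replicate 2 (0.67, adjusted p = 0.0247). Egr1 was at 1.21 ± 0.44 (adjusted p = 0.180) and lay above all controls in 4 of 6 arrays. All 10 estimates were above 0, with a median of 0.62 against -0.01 over all probes. This comparison shares its control arrays with that of DSS alone.

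The spread between arrays of 1 group differed among the 10 genes. The pooled SD within groups was 0.65 for Fos, 0.73 for Fosb, 0.74 for Egr1 and 0.72 for Atf3, higher than in 97.9% to 98.6% of all probes, whose median was 0.14. For Junb, Zfp36, Ier3 and Dusp1 it was 0.27 to 0.34, for Jun 0.22 and for Fosl1 0.12. In the controls alone, Egr1 spanned 1.73 and Fos 1.35 log2 units, against 0.29 for Dusp1.

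Deviations from the group means were shared between some of the genes over the 16 arrays. They are given as descriptions, since arrays of 1 group share their treatment. Fos and Egr1 deviated together (Pearson r = 0.85, Spearman rho = 0.88, and r = 0.89 without the 2 arrays farthest from the median of Fos). Fosb and Atf3 did so at r = 0.81 (rho = 0.79), of which r = 0.63 was left without the 2 farthest arrays of Fosb, and Atf3 and Zfp36 at r = 0.85 (rho = 0.81, r = 0.75 without 2). Fos and Jun, the classical AP-1 pair, had r = -0.07 (rho = -0.03, r = 0.20 without 2). These pairs are examples. Others were high too: Junb with Zfp36 (0.77), Atf3 with Dusp1 (0.75), and Dusp1 with Fos and with Zfp36 (0.74 each). The lowest was Jun with Dusp1 (-0.16). In DSS replicate 2 and MTA replicate 2, 1570 and 1543 probes lay over 2 pooled SD from the group mean. The part of such array-wide deviations in these correlations was not tested.

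Outside the 10, the genes whose log2 levels over the 16 arrays were most like each of them were read off by Pearson correlation over all other named genes. With so many genes searched and 3 groups that differ, high values are common, so the correlation of deviations from the group means is given beside each. For Egr1 the closest were Errfi1, a feedback inhibitor of the EGF receptor (r = 0.94, deviations 0.90), Midn (0.93 and 0.86) and the integrin Itgav (0.92 and 0.82). For Ier3 they were the chemokine Cxcl1 (0.96 and 0.75), the matrix enzyme Mmp3 (0.96 and 0.77) and the spermine oxidase Smox (0.96 and 0.72). Junb was most like Socs3, a feedback inhibitor of cytokine receptors (0.96 and 0.74), Gch1 (0.96 and 0.70) and Phlda1 (0.95 and 0.79). Dusp1 was most like the NF-kappaB subunit Rela (0.94 and 0.86), the receptor Egfr (0.93 and 0.73) and Trps1 (0.93 and 0.85), and Zfp36 most like Cxcl16 (0.93 and 0.80), Phlda1 (0.93 and 0.76) and Gadd45g (0.92 and 0.80). Fosb and Atf3 had the same closest gene, the arrestin-domain gene Arrdc4 (0.87 and 0.90 for Fosb, 0.92 and 0.90 for Atf3). By rank the likeness to Arrdc4 was lower, with a Spearman rho of 0.53 for Fosb and 0.77 for Atf3, the genes with MTA replicates 2 and 5 far above the other arrays. Fos was closest to Esyt2 (0.87 and 0.83), Jun to Gng2 (0.86 and 0.80) and Fosl1 to Rrbp1 (0.81 and 0.64).

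Related genes were read from lists, 1 probe a gene, in the same fit. Of the other AP-1 and related bZIP factors 9 were measured and 1 rose with DSS, Jdp2 (0.64 ± 0.15, SE, limma adjusted p = 0.0207), a repressor that pairs with Jun. Maff (0.47 ± 0.14, adjusted p = 0.0511) and Batf (0.35 ± 0.11, adjusted p = 0.0763) did not pass. Of 18 other early transcription factors 5 rose: Cebpb, an activator of acute-phase and cytokine genes (1.79 ± 0.17), the Egr1 relative Egr2 (1.23 ± 0.21), the nuclear receptor Nr4a2 (1.07 ± 0.16), Csrnp1 (0.94 ± 0.24) and Klf6 (0.48 ± 0.12). The list medians were 0.21 and 0.10, against -0.02 over all probes.

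Among 20 early effector genes 8 rose and none fell, with a median of 0.56. They included the urokinase receptor Plaur (1.37 ± 0.11), the NF-kappaB modulator Nfkbiz (1.14 ± 0.18), the kinase Plk2 (1.15 ± 0.22) and the cyclooxygenase Ptgs2 (0.59 ± 0.12), which is also on the list of Zfp36 targets. Beside Dusp1, 8 MAP kinase phosphatases were measured and 1 rose, the ERK-specific Dusp6 (1.30 ± 0.26, SE, limma adjusted p = 0.0075). Dusp2 (0.69 ± 0.30), Dusp4 (0.38 ± 0.13) and Dusp7 (0.42 ± 0.19) did not pass. Beside Zfp36, 9 regulators of AU-rich mRNA were measured. Its relative Zfp36l1 rose (0.54 ± 0.11) and the kinase Mapkapk3, which acts downstream of p38, fell (-0.48 ± 0.13), while Mapkapk2 (0.24 ± 0.08) and Khsrp (-0.16 ± 0.10) did not pass.

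Upstream, 3 of 16 kinases and serum response factors with their partners rose with DSS. These were the serum response partner Elk3 (0.40 ± 0.06), the kinase Map3k8, which activates ERK downstream of Toll-like receptors (0.94 ± 0.17), and Map2k4, which activates JNK (0.37 ± 0.09). Rps6ka3 (0.53 ± 0.16, adjusted p = 0.0545) did not pass. In the EGF family 3 of 7 rose, the ligands Ereg (1.03 ± 0.10) and Epgn (1.54 ± 0.24) and the receptor Egfr (0.76 ± 0.11), and Btc (0.68 ± 0.27) did not pass. With MTA against DSS, Elk3 fell (-0.37 ± 0.06, SE, limma adjusted p = 0.0243) and Ereg fell (-0.63 ± 0.09, adjusted p = 0.0235), each 1 of its list. Egfr (-0.47 ± 0.09, adjusted p = 0.0698) and Map3k8 (-0.59 ± 0.15, adjusted p = 0.129) did not pass.

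**Figure D4:**
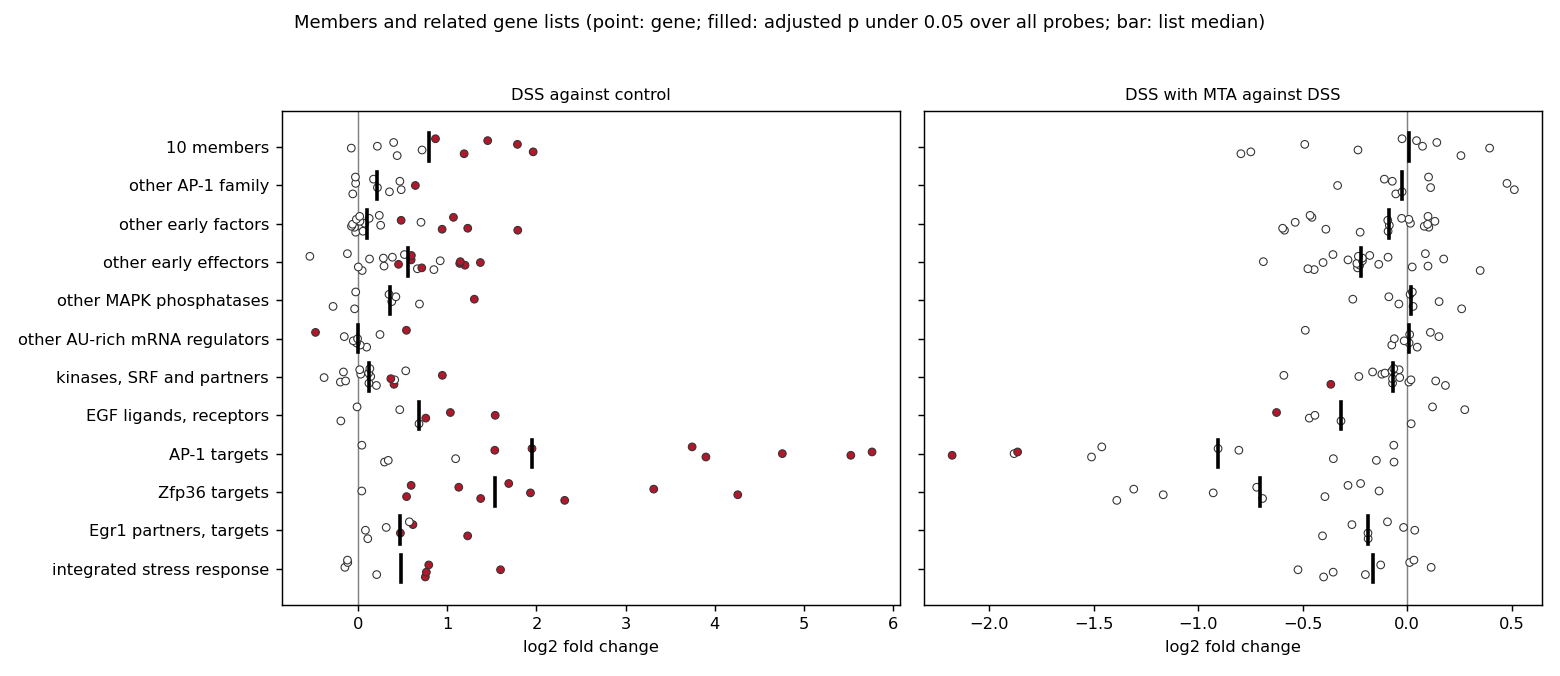
Log2 fold changes (horizontal axis) of the 10 genes and 11 lists of related genes, 1 point a gene, filled where the limma adjusted p was below 0.05, with a bar at the list median, for DSS against control on the left and MTA with DSS against DSS on the right. AP-1 and Zfp36 targets have the medians farthest from 0 on both sides, while the median of the 10 genes is 0.79 on the left and 0.01 on the right. The lists were chosen with earlier results of these data known.

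Textbook targets of these factors were measured on the same arrays. These lists were chosen with earlier results of these data known, so their counts and medians are descriptions and no test of the factors. Over all probes the median was -0.02 with DSS against control and 0.01 with MTA against DSS. Of 11 AP-1 targets 7 rose with DSS, with a median of 1.95, among them Mmp3 (5.77 ± 0.33), Mmp10 (5.53 ± 0.43), Mmp13 (4.76 ± 0.49) and the protease inhibitor Timp1 (3.75 ± 0.38). With MTA against DSS all 11 estimates were below 0, with a median of -0.91, and 2 passed, Mmp3 (-1.86 ± 0.29, SE, limma adjusted p = 0.0269) and Mmp10 (-2.18 ± 0.39, adjusted p = 0.0379). Of 10 targets of Zfp36, 9 rose with DSS (median 1.53), for example Tnf (1.69 ± 0.13), Cxcl1 (4.26 ± 0.38), Il1b (3.32 ± 0.32) and Ccl2 (2.32 ± 0.31). With MTA against DSS all 10 were below 0 (median -0.71) and none passed, with Tnf at -0.22 ± 0.12 and Ccl2 at -1.39 ± 0.28 (adjusted p = 0.0666). Of 7 partners and targets of Egr1, 3 rose with DSS: the adhesion molecule Icam1 (1.23 ± 0.19), the corepressor Nab1 (0.47 ± 0.11) and Pdgfb (0.61 ± 0.16), while Tgfb1 (0.57 ± 0.19) did not pass. Of 8 integrated stress response genes beside Atf3, 4 rose: Chac1, which breaks down glutathione (1.60 ± 0.23), the phosphatase subunit Ppp1r15a (0.79 ± 0.14), Atf5 (0.76 ± 0.16) and Asns (0.75 ± 0.18). Only 5 of these 8 estimates were above 0, with a median of 0.48.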

How the data were processed

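Biotin-labelled cRNA of whole colon RNA was hybridised to Illumina 1-colour bead arrays, per the labels' protocols. The deposited intensities of 25697 probes were on a linear scale (42.0 to 41634) with array medians of 112.0 to 112.2, so the authors had normalized them. The sources used here name neither their software nor their background treatment. A second table, with 32 columns named by array position only, was given to no sample and not used, so detection p-values and slides could not be examined. Groups and replicate numbers came from the titles.

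Log2 of the deposited intensities entered 1 linear model of the 3 groups, without covariate or filter, on the 16 arrays together (R 4.3.3, limma 3.58.1, functions lmFit and eBayes). Tests were two-sided, with Benjamini-Hochberg adjustment over all 25697 probes and a threshold of 0.05. The steps were tested on simulated data. The number of arrays limits the precision.

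Probe names came from the platform annotation (23978 probes with 1 symbol, 0 with several, 1719 unnamed). The 10 genes have 1 probe each. Of 239 genes in 21 related lists 206 were measured, 2 of them through a synonym in the RefSeq table of GRCm38.p6, each by its probe with the highest mean. The text names all 10 genes, up to 4 genes a list by smallest p with DSS (beyond these, those that passed where 5 did), and the closest genes by correlation (3 for each of the 10, of which fewer are printed for some). Lists of cell type markers are given as counts, as medians or ranges of fold changes over genes, or as list means per array. Of their genes Gfap, Ret and S100b are named. The genes and lists were chosen with earlier results of these data known. Promoter motifs were searched with Python 3.11.15.

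Alternatives changed the filter, normalization, background, pseudocount, variance prior, weights, samples and blocks, or left out single arrays.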

Additional observations from a re-analysis of the deposited data

How the results depend on the processing

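Of 834 values of the 10 genes under the alternatives, 803 kept their direction and their side of the threshold, 4 lost a call, 12 gained one and 15 turned sign, all 15 of differences that did not pass. Fosl1 had no value with only the brighter probes kept. With array weights, 2694 probes were called with DSS against control, 64 with MTA against DSS and 829 with MTA against control, and Fosb with DSS stood at 0.019 and Junb with MTA against DSS at -0.016. Fits on the 2 groups of a comparison alone called 0 probes with MTA against DSS and 343 with MTA against control, where Zfp36 lost its call (adjusted p = 0.0581). Chosen after seeing the data, leaving out DSS replicate 2 and MTA replicate 2 together, the arrays least like their groups, called 23 probes with MTA against DSS, with Junb at -0.081 there and Fosb at -0.066 against control. Leaving out single arrays gave 4 to 6 of the 10 genes and 872 to 2200 probes with DSS against control, 0 to 0 and 0 to 170 with MTA against DSS, and 2 to 4 and 156 to 854 with MTA against control. The same fits spanned -0.20 to 0.015 for Fosb with DSS, -0.066 to 0.49 for Fosb with MTA against control, and with MTA against DSS -0.039 to 0.16 for Junb, -0.11 to 0.074 for Zfp36 and -0.0029 to 0.49 for Atf3. The causes were not tested.

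With the replicate number as a block, 1 of the 10 genes was called with MTA against DSS, Dusp1 (-0.80, limma adjusted p = 0.0495), and 269 probes in all. In that comparison, the deviations of same-numbered samples correlated at 0.57, 0.46, 0.0092, 0.031, 0.0078 and 0.19 for replicates 1 to 6. All were above 0 but not all above the 0.1 required to treat the numbers as pairs, and the labels name no shared animal or batch. Against control they ran from -0.057 to 0.33 with DSS and from -0.28 to 0.38 with MTA. Detection p-values could not be tied to samples, so signal over background limits the dim Fosl1 and Fosb.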
